A study of Homo sapiens with 6 samples.

Results

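The genes described here are the zinc finger genes with a ZNF symbol that lie outside chromosome 19. A gene was a member if the platform annotation gave its probe set a single symbol beginning with ZNF and RefSeq placed it on an autosome other than chromosome 19, and where a gene had several probe sets the brightest on average was read. This gave 247 of the 18417 genes tested, on 20 chromosomes, 13 of which held at least 10 members. RefSeq lists 366 ZNF genes on these chromosomes, of which 256 are protein-coding, so the array measured a part of the family under a single symbol. In all, 495 ZNF genes were tested, and 237 of the others lie on chromosome 19 and 11 on the X chromosome.

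RNA came from MDA-MB-231, a line grown from a human triple-negative breast cancer, and was measured on Affymetrix whole-transcript arrays. The first group held 3 cultures treated with YW3-56 at 10 µM for 8 h and the second held 3 cultures given DMSO, the vehicle, for which no time is stated separately. YW3-56 is a small-molecule inhibitor of peptidylarginine deiminases, enzymes that convert arginine to citrulline in histones and other proteins. All cultures were of 1 cell line in serum-containing medium and received 1 dose at most, so the values describe this line at 1 dose and 1 time.

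Most ZNF proteins carry C2H2 zinc fingers, small zinc-binding units that are strung together and read DNA sequence. Many also carry a KRAB domain, which recruits the corepressor TRIM28 and through it histone deacetylases and the H3K9 methyltransferase SETDB1, and such proteins are known for silencing transposable elements. The largest group of these genes sits in tandem clusters on chromosome 19, but smaller clusters and many single genes are spread over the other chromosomes, and some ZNF proteins act in RNA handling, ribosome assembly or mitosis instead.

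The members' RNA was more often higher than lower in YW3-56 cells. Values are RMA log2 intensities, a difference is the YW3-56 mean minus the DMSO mean, and a gene was called higher or lower at an adjusted p under 0.05 in limma with Benjamini-Hochberg adjustment over all 18417 genes. Of the 247 members, 87 were called, 71 of them higher and 16 lower, while 160 did not pass the test. These counts are 28.7% and 6.48% of the members, against 9.84% called higher and 11.5% called lower among all genes tested and 21.4% called in either direction. The median difference of the members was 0.11, with a range of -0.93 to 1.07, and 154 of 247 differences were positive. Over all genes the median difference was -0.05. Set against the DMSO mean, the members' median was 0.10, 0.11 and 0.12 in YW3-56 replicates 1, 2 and 3 (SD 0.0059), so all 3 arrays lay above 0. The 3 values share 1 DMSO mean, so this SD leaves out the spread of the DMSO arrays. Leaving out 1 array at a time gave medians of 0.0938 to 0.1282.

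All 3 YW3-56 arrays lay above all 3 DMSO arrays for 101 members, or 40.9%, against 15.5% of all genes, and below them for 36 members, or 14.6%, against 21.4% of all genes. Each of the 87 called members was among these. Differences were small: 27 of the 87 reached 1.5-fold, 23 of them higher and 4 lower, and 2 reached 2-fold. Of the 3933 genes called among all genes, 1174 reached 1.5-fold and 262 reached 2-fold. Differences under 1.5-fold were thus common among called genes and not particular to the members. The counts moved with single arrays. Without DMSO replicate 2 there were 45 members called higher and 12 lower, beside 6.63% and 7.74% of all genes, and without YW3-56 replicate 3 there were 45 and 9, beside 6.29% and 6.55%. The call held without any single array for 51 of the 87 members, 43 higher and 8 lower. With the replicate number as a block, 78 members were called higher and 19 lower, beside 11.5% and 14.4% of all genes. RMA equalises the arrays' distributions, so a change common to all transcripts is hidden, and in cultures measured in bulk less RNA per cell cannot be told apart from fewer cells that carry it.

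Marker genes of the line are given by the percentile of their mean level among all genes, as a description only, since the ranks set different probe sets against each other. The 7 measured genes listed as expressed in this line stood at 80.4 to 99.7, VIM and CD44 at 99.7 and 99.5. The 8 genes listed as low were mixed: ESR1 stood at 22.4, PGR at 8.88 and CDH1 at 14.1, but ERBB2 at 65.5, KRT8 at 94.7 and KRT18 at 95.8. The 6 measured genes of blood, endothelial and liver cells stood at 3.34 to 27.8, and of these HBB was called higher (0.37, limma adjusted p = 0.0197), a call lost without DMSO replicate 2 or 3 or YW3-56 replicate 1 or 3. The part of other cells in the results was not tested. The arrays correlated at 0.990 to 0.997 within groups and at 0.980 to 0.985 between groups, and array medians ran from 7.55 to 7.74. The labels call the replicates biological without saying how the cultures were separated, so p-values measure the spread between these cultures.

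The largest rise belonged to ZNF596 on chromosome 8, with 6.50, 6.31 and 6.68 in YW3-56 cells, against 5.48, 5.47 and 5.34 in DMSO cells. The groups were well apart, by 1.07 ± 0.10 (SE, n = 3 each; limma adjusted p = 4.45e-04), but the probe set was dim, at percentile 9.37 of mean level. Its DMSO mean of 5.43 lies near those of the probe sets of PTPRC (5.36) and ALB (5.62), genes of leukocytes and liver, so it is not shown to be above background there and no exact fold is given. ZNF721 on chromosome 4 was among the brighter members at percentile 83.6. It had 10.68, 10.81 and 11.01 in YW3-56 cells, against 9.84, 9.85 and 9.78 in DMSO cells, a difference of 1.00 ± 0.10 (limma adjusted p = 4.00e-04). These were the 2 members past 2-fold, ZNF721 at 2.01-fold.

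ZNF10, a KRAB protein also known as KOX1 whose repressor domain is widely used in engineered repressors, had 7.04, 7.27 and 7.44 in YW3-56 cells, against 6.34, 6.29 and 6.37 in DMSO cells (0.92 ± 0.11, limma adjusted p = 8.25e-04). ZNF684 on chromosome 1 had 7.85, 7.89 and 7.98, against 7.21, 6.94 and 6.94 (0.88 ± 0.10, limma adjusted p = 6.58e-04). In both genes the lowest YW3-56 array stood above the highest DMSO array. The probe set of ZNF10 was dim, at percentile 22.9 of mean level. Its DMSO mean of 6.33 lies near that of CD3E (6.34), a blood cell gene, so ZNF10 is not shown to be above background there. ZNF670 on chromosome 1 showed a wider spread in DMSO cells: 8.57, 8.42 and 8.70 in YW3-56 cells, against 8.19, 7.66 and 7.34 in DMSO cells (0.84 ± 0.19, limma adjusted p = 0.017). Its call was lost without DMSO replicate 2 (adjusted p = 0.0644), YW3-56 replicate 1 (0.053) or YW3-56 replicate 3 (0.0733).

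The next 5 rises were ZNF138 on chromosome 7 (0.82), ZNF184 on chromosome 6 (0.80), ZNF618 on chromosome 9 (0.79), ZNF589 on chromosome 3 (0.76) and ZNF214 on chromosome 11 (0.72), with adjusted p-values of 0.000578 to 0.0025 in limma. Each kept its call without any single array. ZNF184 had 9.23, 9.36 and 9.53 in YW3-56 cells, against 8.57, 8.48 and 8.66 in DMSO cells. ZNF618 had 9.94, 9.93 and 10.15, against 9.19, 9.22 and 9.24. Its second, dimmer probe set differed by 0.77, close to the first. ZNF138 was less uniform: the brighter probe set had 9.27, 9.44 and 9.56 in YW3-56 cells, against 8.78, 8.61 and 8.41 in DMSO cells, while the dimmer one differed by -0.14.

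The plot of the 10 largest rises and 10 largest falls by array shows each of these members with its 6 values.

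**Figure D1:**
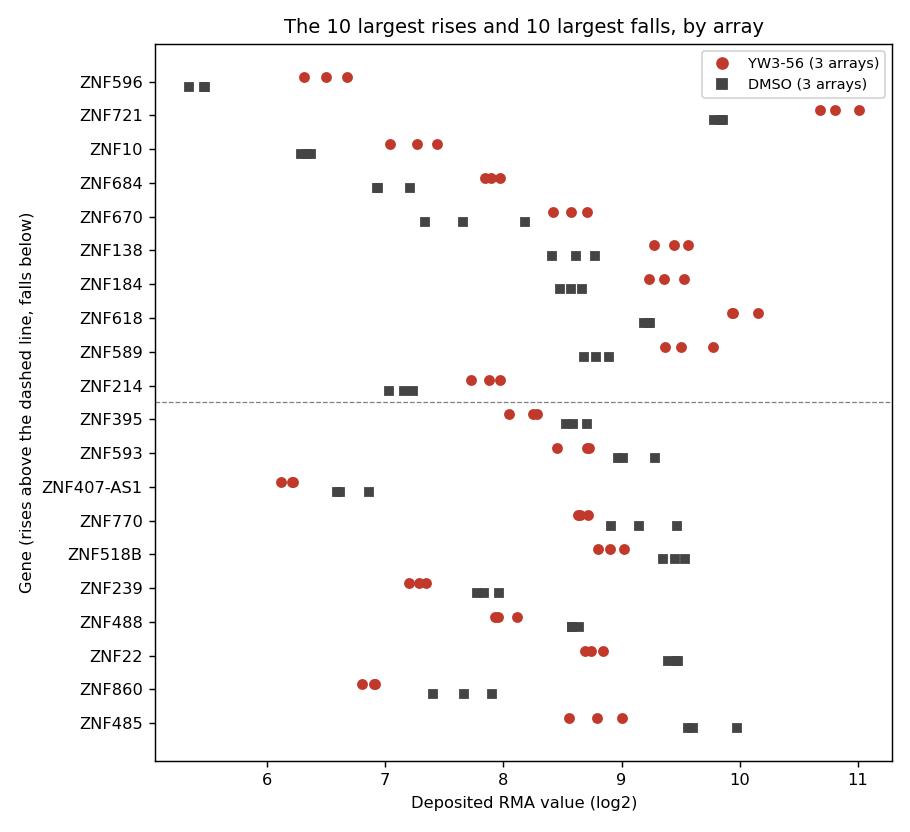
Log2 intensity of the 10 members with the largest called rise and the 10 with the largest called fall, 1 mark per array, YW3-56 as circles and DMSO as squares, with rises above the dashed line and falls below it. In every one of these members the 3 YW3-56 circles lie on 1 side of the 3 DMSO squares, and ZNF670 and ZNF770 show the widest DMSO spread beside their difference.

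The deepest fall belonged to ZNF485 on chromosome 10, with 9.01, 8.56 and 8.80 in YW3-56 cells, against 9.98, 9.56 and 9.60 in DMSO cells. This was a difference of -0.93 ± 0.14 (SE, n = 3 each; limma adjusted p = 0.00297), or 1.90-fold, and the groups did not overlap. ZNF860 on chromosome 3 had 6.91, 6.90 and 6.80 in YW3-56 cells, against 7.90, 7.67 and 7.41 in DMSO cells (-0.78 ± 0.12, limma adjusted p = 0.00297). ZNF22 on chromosome 10 had 8.74, 8.69 and 8.84, against 9.47, 9.46 and 9.40 (-0.69 ± 0.07, limma adjusted p = 0.00065). The gap between groups in ZNF22 was several times the spread within either.

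Also on chromosome 10, ZNF488 differed by -0.60 and ZNF239 by -0.58. ZNF488, known in mouse as a regulator of oligodendrocyte development, had 7.95, 7.93 and 8.12 in YW3-56 cells, against 8.64, 8.58 and 8.58 in DMSO cells. ZNF239 had 7.35, 7.29 and 7.21, against 7.96, 7.78 and 7.83. Thus 4 of the 5 largest falls lay on 1 chromosome. The falls that completed the 10 largest were ZNF518B on chromosome 4 (-0.54), ZNF770 on chromosome 15 (-0.51), the antisense RNA ZNF407-AS1 on chromosome 18 (-0.51), ZNF593 on chromosome 1 (-0.46) and ZNF395 on chromosome 8 (-0.41).

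Several of these weaker falls lost their call when 1 array was left out. ZNF770 had 8.72, 8.63 and 8.64 in YW3-56 cells, against 9.47, 8.91 and 9.14 in DMSO cells, and its adjusted p rose to 0.0539 without DMSO replicate 3 and to 0.0614, 0.0854 and 0.0933 without YW3-56 replicates 1, 2 and 3. The call of ZNF593 was lost without YW3-56 replicate 2 (0.0824) or 3 (0.0565), and that of ZNF395 without YW3-56 replicate 3 (0.0617). In the same order, the differences in these fits were -0.53, -0.54, -0.49 and -0.50 for ZNF770, -0.37 and -0.50 for ZNF593 and -0.34 for ZNF395. ZNF518B and ZNF407-AS1 kept their calls throughout. The probe set of ZNF407-AS1 was dim, at percentile 16.5 of mean level. Its YW3-56 mean of 6.18 lies below the DMSO mean of CD3E (6.34), so ZNF407-AS1 is not shown to be above background there.

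The chromosomes were compared next, as a description with no test between them. By median difference, chromosome 6 stood highest among the 13 chromosomes with at least 10 members. All 10 of its members had positive differences, with a median of 0.48, and limma called 7 higher and 0 lower (8 and 0 at an unadjusted p under 0.05). The median over these 10 was 0.46, 0.50 and 0.49 in YW3-56 replicates 1, 2 and 3 against the DMSO mean. Called higher were ZNF184 (0.80), ZNF292 (0.72), ZNF322 (0.70), ZNF451 (0.57), ZNF391 (0.54), ZNF311 (0.42) and ZNF165 (0.30), while ZNF76, ZNF318 and ZNF204P differed by 0.19, 0.15 and 0.08. Of the other genes of chromosome 6, 10.5% were called higher and 14.8% lower. Chromosome 6 kept the top place in all 15 fits tried, with a median of 0.45 to 0.55 and 5 to 8 members called higher. The count of 5 came from the filter above the median level, which left 6 of its members. The call of ZNF165 was lost without DMSO replicate 2 (limma adjusted p = 0.0927), DMSO replicate 3 (0.0506), YW3-56 replicate 2 (0.0885) or YW3-56 replicate 3 (0.0985).

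Chromosome 10 held the most lower calls. Of its 18 members 3 were called higher and 5 lower, with a median of -0.01, and its lower calls were 5 of the 16 lower calls among all members. The 5 were ZNF485, ZNF22, ZNF488, ZNF239 and ZNF438 (-0.38), and the 3 higher ones were ZNF248 (0.58), ZNF487 (0.47) and ZNF503 (0.36). Lower calls outnumbered higher calls there in 13 of 14 alternative fits, and without DMSO replicate 1 there were 5 of each. Higher calls dropped to 1 without DMSO replicate 2, YW3-56 replicate 2 or YW3-56 replicate 3, while lower calls were 4 or 5 whichever array was left out. Of the other genes of the chromosome, 9.83% were called higher and 13.3% lower. Without chromosome 10, 68 of the remaining 229 members were called higher and 11 lower. ZNF438 lost its call without DMSO replicate 2 (limma adjusted p = 0.0533), YW3-56 replicate 2 (0.0653) or YW3-56 replicate 3 (0.0683).

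Of the remaining chromosomes, 9, 3, 12, 7 and 1 had medians of 0.33, 0.27, 0.27, 0.20 and 0.18. On chromosome 9, 4 of 10 members were called higher and 1 lower, on chromosome 3 it was 8 and 1 of 18, on chromosome 12 it was 5 and 0 of 11, on chromosome 7 it was 11 and 2 of 29, and on chromosome 1 it was 8 and 1 of 21. Medians lay between -0.03 and 0.06 on the other 6, with 1 lower call on each of chromosomes 5, 8, 17 and 18. There, 6 members of 17 were called higher on chromosome 8, 5 of 30 on chromosome 16, 3 of 11 on chromosome 17, 2 of 12 on each of chromosomes 5 and 20, and 1 of 12 on chromosome 18. The member with the largest called change was ZNF354A on chromosome 5 (0.44), ZNF319 on chromosome 16 (0.67), ZNF624 on chromosome 17 (0.71), ZNF407-AS1 on chromosome 18 (-0.51) and ZNF217 on chromosome 20 (0.38). Chromosome 16, with the most members, had 0 called lower in limma, as had chromosomes 12 and 20; at an unadjusted p under 0.05 it was 2, 1 and 1.

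Among the other genes of these 11 chromosomes, 6.04% to 10.3% were called higher and 10.6% to 13.9% lower. Several of the members' counts changed when 1 array was left out, as did the shares of all genes called. Without DMSO replicate 2, higher calls were 6 on chromosome 7, 5 on chromosome 1, 4 on chromosome 8, 3 on each of chromosomes 12 and 16 and 0 on each of chromosomes 5 and 20. Without YW3-56 replicate 1 they were 3 on each of chromosomes 12 and 16, 4 on chromosome 8 and 0 on each of chromosomes 5 and 20. Without YW3-56 replicate 2 they were 3 on each of chromosomes 12 and 16, 4 on chromosome 8 and 1 on chromosome 20. Without YW3-56 replicate 3 they were 6 on chromosome 7, 5 on chromosome 3, 3 on chromosome 12, 4 on chromosome 8 and 0 on each of chromosomes 5, 18 and 20. Without DMSO replicate 3 they were 3 on chromosome 16 and 1 on chromosome 5. Without DMSO replicate 1 it was 1 on chromosome 5. The 1 lower call of chromosome 17 was lost whichever array was left out, that of chromosome 1 without YW3-56 replicate 2 or 3, that of chromosome 5 without DMSO replicate 2 or any YW3-56 replicate, that of chromosome 8 without YW3-56 replicate 3 and that of chromosome 9 without YW3-56 replicate 1 or 3. Without DMSO replicate 1, lower calls were 2 on each of chromosomes 8, 9 and 18 and 1 on chromosome 20, and without YW3-56 replicate 1 they were 2 on chromosome 8 and 1 on chromosome 20.

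Some places in the order of medians were not stable. The median of chromosome 17 ran from -0.08 to 0.41 over the 15 fits and its rank from 3 to 13. The 0.41 came from the filter above the median level, which left 3 of its 11 members. In the other fits its median was at most 0.06. The median of chromosome 3 ran from 0.23 to 0.37 and that of chromosome 12 from 0.25 to 0.31. ZNF354A lost its call without DMSO replicate 2 (limma adjusted p = 0.0567), YW3-56 replicate 1 (0.0566) or YW3-56 replicate 3 (0.0628). The 36 members on the remaining 7 chromosomes together had a median of 0.11, with 6 called higher (16.7%) and 2 lower (5.56%). Over all genes these shares were 9.84% and 11.5%. Among genes that are no ZNF, the median per chromosome lay between -0.08 and -0.04 on all 13 chromosomes.

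**Figure D2:**
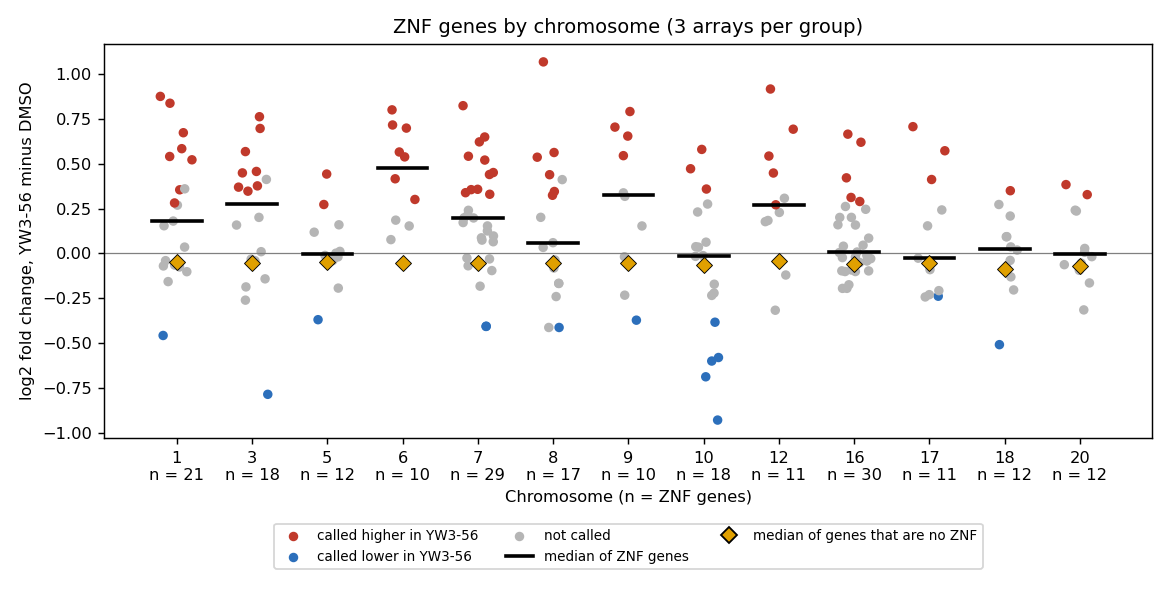
Log2 difference, YW3-56 minus DMSO, of each member (points) by chromosome, for the 13 chromosomes with at least 10 members, coloured by call, with a bar at the members' median and a diamond at the median of the genes of that chromosome that are no ZNF. All 10 chromosome 6 points lie above 0, and the lowest point of all, ZNF485 at -0.93, is on chromosome 10.

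Neighbouring members were then set side by side. A cluster was a run of ZNF genes in RefSeq order with at most 3 other protein-coding genes between neighbours and at least 4 measured members. There were 12 such clusters with 75 members, of which 25 were called higher (33.3%) and 3 lower (4%), with a median of 0.15. Of the 172 members outside them, 46 were called higher (26.7%) and 13 lower (7.56%), with a median of 0.10. Over all genes these shares were 9.84% and 11.5%. The cluster at the end of chromosome 12 held a run of rises. It was picked out after its values were seen, and a gradient along it was not tested. In gene order the differences were 0.18 for ZNF605, 0.45 for ZNF26, 0.54 for ZNF84, 0.69 for ZNF140, 0.92 for ZNF10 and 0.18 for ZNF268. The middle 4 were called higher and the outer 2 were not (adjusted p = 0.475 and 0.207 in limma).

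ZNF84 had 8.91, 8.97 and 9.16 in YW3-56 cells, against 8.58, 8.43 and 8.40 in DMSO cells, and ZNF140 had 8.94, 8.65 and 9.01, against 8.24, 8.11 and 8.16. ZNF26 was weaker, with 7.83, 7.72 and 7.81, against 7.66, 7.17 and 7.19 (limma adjusted p = 0.0438). Its call held without DMSO replicate 1 but not without any other single array (0.0866 to 0.154).

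A second run of rises lay on chromosome 7 between ZNF679 and ZNF92. ZNF138 (0.82), ZNF273 (0.65), ZNF92 (0.62), ZNF680 (0.52) and ZNF107 (0.45) were called higher, ZNF679 differed by -0.07 without passing the test, and ZNF117, inside the same run, was called lower. ZNF117 had 7.08, 7.18 and 7.33 in YW3-56 cells, against 7.55, 7.75 and 7.52 in DMSO cells (-0.41 ± 0.10, limma adjusted p = 0.0191), so it moved against the genes on either side. Its call was lost without DMSO replicate 2 (0.0769), YW3-56 replicate 1 (0.0692) or YW3-56 replicate 2 (0.0689). ERV3-1, an endogenous retroviral envelope gene that neighbours it, differed by -0.16 (adjusted p = 0.214). ZNF680 lost its call without DMSO replicate 2 (0.10), DMSO replicate 3 (0.0716), YW3-56 replicate 2 (0.0872) or YW3-56 replicate 3 (0.101). These genes are close paralogs, and probes may take signal from more than 1 of them.

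Other clusters held fewer calls. From ZNF445 to ZNF501 on chromosome 3, 3 of 6 were called higher (median 0.39), and from ZNF786 to ZNF862 on chromosome 7, 4 of 10 (median 0.21). Without YW3-56 replicate 3 each of these clusters had 1 higher call, and without DMSO replicate 2 they had 2 and 1. The chromosome 3 cluster had 2 without YW3-56 replicate 2, and the chromosome 7 one had 2 without YW3-56 replicate 1. By contrast, 0 of 8 members from ZNF48 to ZNF689 on chromosome 16 were called in either direction by limma, with differences of -0.19 to 0.20, and 0 passed an unadjusted p under 0.05. The 4 members from ZNF397 to ZNF396 on chromosome 18 likewise had 0 calls and 0 unadjusted p-values under 0.05. Among all genes tested 9.84% were called higher and 11.5% lower, so sets of 4 or 8 genes are too small to show fewer calls than that.

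**Figure D3:**
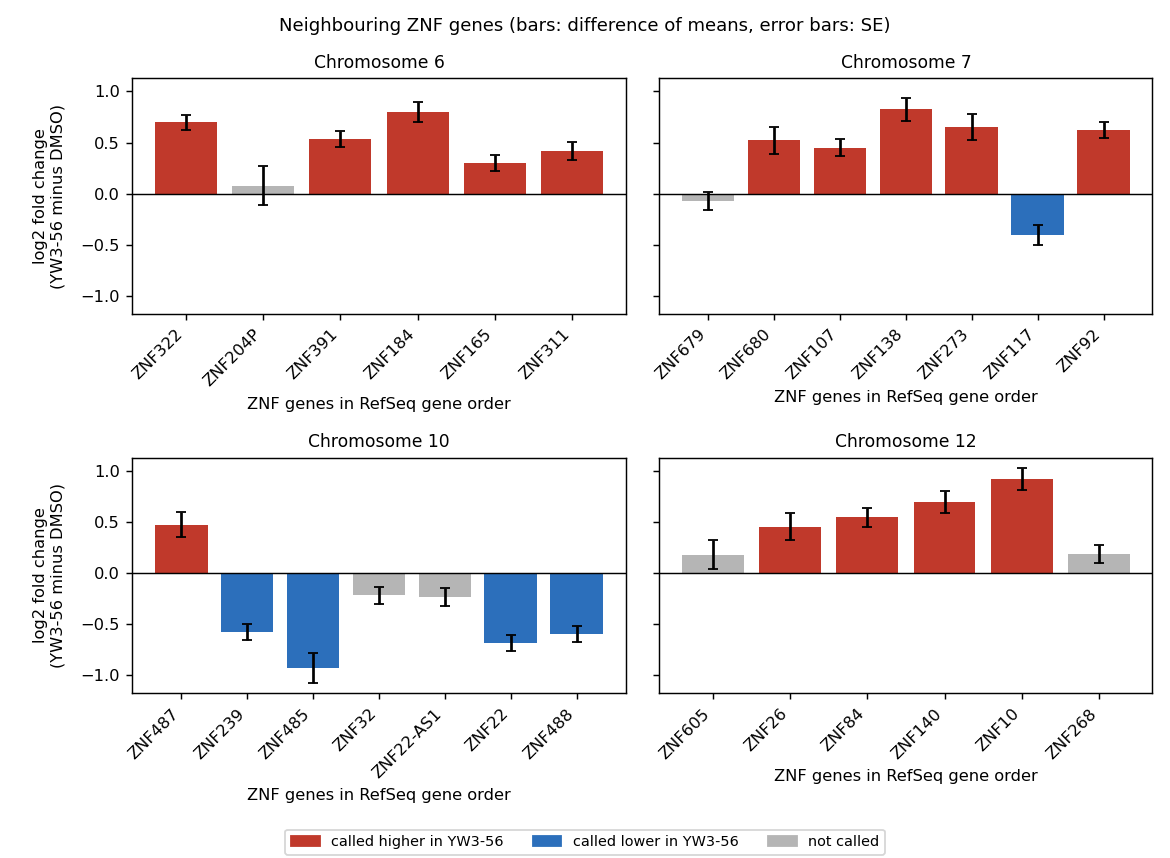
Log2 difference, YW3-56 minus DMSO (bars, with SE as error bars), of neighbouring members on chromosomes 6, 7, 10 and 12, in RefSeq gene order along each horizontal axis and coloured by call. On chromosome 12 the differences go up along the row to ZNF10 at 0.92, on chromosome 7 ZNF117 lies below 0 between higher neighbours, and on chromosome 10 ZNF487 lies above 0 in a row with 4 genes called lower.

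2 longer spans were picked out after their values were seen. On chromosome 10, from ZNF487 to ZNF488, 4 of 7 ZNF members were called lower and 1 higher (median -0.58). Of the 21 other genes between them 2 were called lower and 1 higher (median -0.05). Among all genes tested 9.84% were called higher and 11.5% lower, so the 21 other genes held no more calls than that. ZNF487, at the start of the span, had 7.20, 7.18 and 7.19 in YW3-56 cells, against 6.76, 6.43 and 6.96 in DMSO cells (0.47 ± 0.13, limma adjusted p = 0.0309). ZNF487 was dim, at percentile 26.3 of mean level. It kept its call without DMSO replicate 1 or 3 but not without DMSO replicate 2 (0.0672) or YW3-56 replicate 1 (0.0879), 2 (0.0857) or 3 (0.0987). Its neighbours ZNF239 and ZNF485 were lower in every YW3-56 array than in any DMSO array, and ZNF32 differed by -0.22 (adjusted p = 0.10).

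On chromosome 6, the span from ZNF322 to ZNF311 also holds replication-dependent histone genes. In it, 5 of 6 members were called higher (median 0.48), beside 9.84% called higher and 11.5% called lower over all genes. The 18 measured histone genes there had 0 called higher and 12 called lower in limma (median -0.46), and 0 and 14 at an unadjusted p under 0.05. Of the 22 remaining genes 8 were called higher and 0 lower (12 and 0 unadjusted, median 0.24), but 3 without YW3-56 replicate 3. These include 9 SCAN-domain zinc finger genes, of which 5 were called higher: ZSCAN26 (0.81), ZKSCAN8 (0.56), ZSCAN31 (0.50), ZSCAN16 (0.44) and ZSCAN12 (0.40). ZKSCAN3, ZSCAN23, ZKSCAN4 and ZSCAN9 differed by 0.56, 0.25, 0.09 and -0.09 without passing the test (adjusted p = 0.0504, 0.0601, 0.619 and 0.497 in limma), and without YW3-56 replicate 3 the number called was 3. The histone genes had 7 lower calls without YW3-56 replicate 1 or 3. ZNF322 had 7.87, 7.95 and 7.99 in YW3-56 cells, against 7.30, 7.25 and 7.17 in DMSO cells (0.70 ± 0.07, limma adjusted p = 0.000627). ZNF311 is named by a pair of probe sets with equal values on all arrays, which count as 1 measurement.

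The promoters of the adjoining genes that moved alike on chromosome 12, of the adjoining genes that moved apart on chromosome 10, and of ZNF184 are shown because these members carry the neighbour results. Each runs 5′ to 3′ on the gene's own strand from 250 bases before to 50 after the RefSeq start (GRCh38.p14). Capitals mark matches on either strand to TGANNNNGC (a loose pattern for the antioxidant response element core) or CCGGAAGT (an ETS site). The loose pattern fixes few bases and was found in 42.8% of the promoters of all genes tested, so a marked stretch need not be such an element.
ZNF26, chr12:132986117-132986416, plus strand: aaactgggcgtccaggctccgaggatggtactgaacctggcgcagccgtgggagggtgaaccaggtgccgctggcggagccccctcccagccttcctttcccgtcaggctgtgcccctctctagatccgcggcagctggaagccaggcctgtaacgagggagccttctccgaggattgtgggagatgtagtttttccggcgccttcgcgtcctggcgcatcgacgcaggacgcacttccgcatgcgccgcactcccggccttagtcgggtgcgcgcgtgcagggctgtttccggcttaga
ZNF84, chr12:133037259-133037558, plus strand: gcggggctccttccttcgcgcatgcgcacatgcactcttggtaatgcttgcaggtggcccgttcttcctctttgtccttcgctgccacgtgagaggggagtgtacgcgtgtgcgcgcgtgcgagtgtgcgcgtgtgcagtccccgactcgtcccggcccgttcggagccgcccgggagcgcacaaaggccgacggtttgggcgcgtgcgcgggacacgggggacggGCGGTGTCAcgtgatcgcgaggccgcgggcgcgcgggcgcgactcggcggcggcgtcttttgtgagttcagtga
ZNF140, chr12:133080673-133080972, plus strand: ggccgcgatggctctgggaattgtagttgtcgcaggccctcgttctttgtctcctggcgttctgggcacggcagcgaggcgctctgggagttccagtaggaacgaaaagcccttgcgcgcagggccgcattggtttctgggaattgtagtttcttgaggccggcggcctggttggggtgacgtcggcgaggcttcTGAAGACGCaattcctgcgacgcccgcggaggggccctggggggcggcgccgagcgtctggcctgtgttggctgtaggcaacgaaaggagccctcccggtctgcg
ZNF10, chr12:133130377-133130676, plus strand: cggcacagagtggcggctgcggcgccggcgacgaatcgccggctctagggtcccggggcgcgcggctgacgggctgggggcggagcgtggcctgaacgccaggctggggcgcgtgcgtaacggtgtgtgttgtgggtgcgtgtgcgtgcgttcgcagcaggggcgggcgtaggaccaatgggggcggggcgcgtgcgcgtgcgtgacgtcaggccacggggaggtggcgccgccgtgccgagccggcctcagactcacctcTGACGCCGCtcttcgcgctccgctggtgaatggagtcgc
ZNF487, chr10:43436598-43436897, plus strand: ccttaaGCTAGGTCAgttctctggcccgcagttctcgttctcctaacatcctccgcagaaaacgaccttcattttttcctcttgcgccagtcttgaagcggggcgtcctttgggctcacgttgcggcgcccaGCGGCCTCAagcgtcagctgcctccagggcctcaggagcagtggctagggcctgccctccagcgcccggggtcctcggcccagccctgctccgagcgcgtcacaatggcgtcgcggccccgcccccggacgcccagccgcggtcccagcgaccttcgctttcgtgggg
ZNF239, chr10:43574567-43574866, minus strand: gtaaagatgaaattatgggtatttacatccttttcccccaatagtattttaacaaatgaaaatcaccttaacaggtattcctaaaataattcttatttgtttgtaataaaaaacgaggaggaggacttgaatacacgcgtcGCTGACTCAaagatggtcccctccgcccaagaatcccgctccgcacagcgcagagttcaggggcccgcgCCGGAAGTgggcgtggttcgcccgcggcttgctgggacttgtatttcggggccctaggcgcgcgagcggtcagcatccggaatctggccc
ZNF485, chr10:43606188-43606487, plus strand: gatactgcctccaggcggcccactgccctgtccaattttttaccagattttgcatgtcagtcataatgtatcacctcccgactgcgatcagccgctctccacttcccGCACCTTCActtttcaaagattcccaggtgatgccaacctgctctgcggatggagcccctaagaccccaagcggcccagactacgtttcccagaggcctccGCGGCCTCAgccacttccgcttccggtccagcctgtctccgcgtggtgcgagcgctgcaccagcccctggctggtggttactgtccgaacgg
ZNF184, chr6:27473056-27473355, minus strand: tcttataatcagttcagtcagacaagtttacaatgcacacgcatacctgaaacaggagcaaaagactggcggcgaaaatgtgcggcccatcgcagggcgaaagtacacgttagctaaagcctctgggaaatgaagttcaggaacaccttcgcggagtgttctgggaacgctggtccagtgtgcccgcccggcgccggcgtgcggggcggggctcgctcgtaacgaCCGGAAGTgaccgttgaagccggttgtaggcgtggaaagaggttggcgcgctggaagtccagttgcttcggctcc

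The motif searches set the members' promoters beside all others of the same length. RefSeq promoters matched 191 of the 247 members, 14237 of all genes tested and 27305 genes in all. The ETS motif CCGGAAGT, searched on both strands, was found in 16.2% of members' promoters and 42 of 204 chromosome 19 ZNF promoters (20.6%). Among all genes tested the share was 6.37%, and among all promoters 4.44%. The ETS motif was in 5 of 14 promoters of members called lower (35.7%), 8 of 56 called higher (14.3%) and 18 of 121 not called (14.9%). In the printed sequences it occurs in ZNF239, which was lower, and in ZNF184, which was higher.

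The loose antioxidant motif TGANNNNGC was in 48.2% of members' promoters, against 42.8% for all genes tested. The ATF4 element core TGATGNAA was in 1.05%, against 2.54%, the heat shock core GAANNTTC in 4.19%, against 5.44%, and TATAAA in 3.14%, against 9%. In chromosome 19 ZNF promoters these motifs, in the same order, were found in 49.5%, 1.96%, 9.31% and 1.96%. Each motif was counted on its own, also where matches overlapped, and the median CpG count was 24 in members' promoters, against 23 for all genes tested. A match is a description of letters in this window and not a bound site.

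Level went with the share of calls. Among the 41 members in the dimmest quartile of all genes, 2 were called higher and 1 lower. In the next quartile it was 17 and 4 of 67, in the third 46 and 10 of 114, and in the brightest 6 and 1 of 25. The share called higher was thus 4.88%, 25.4%, 40.4% and 24% of members from dim to bright, against 1.72%, 6.08%, 16.2% and 15.3% of all genes in the same quartiles. The share called lower was 2.44%, 5.97%, 8.77% and 4%, against 2.15%, 6.41%, 17.6% and 19.9%. The share called higher was larger among members than among all genes in every quartile, though on 2 members in the dimmest. The share called lower was smaller in the upper 2 quartiles and close to that of all genes in the dimmer 2.

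**Figure D4:**
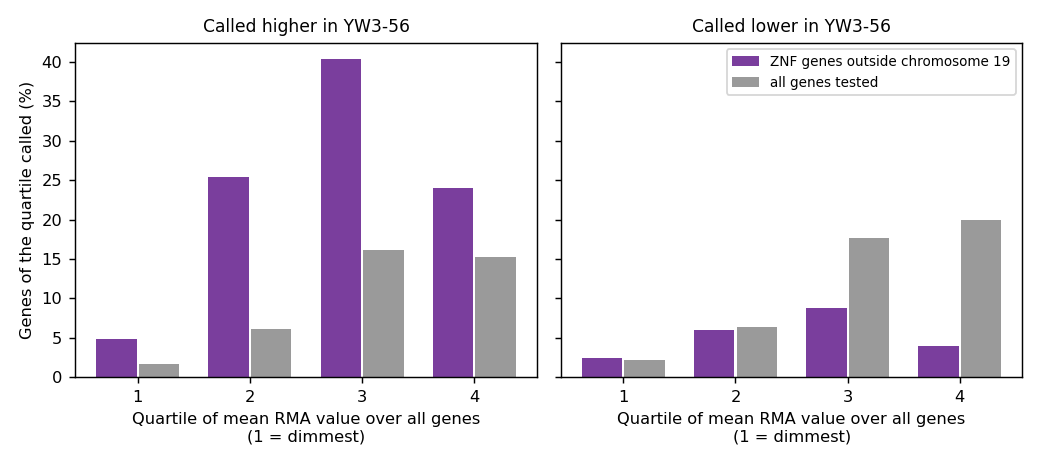
Percent of genes called higher (left panel) and called lower (right panel) in YW3-56 cells by quartile of mean RMA value over all genes tested, with members and all genes side by side. Members stand above all genes in every quartile of the left panel, at 40.4% against 16.2% in the third, and below them in the upper 2 quartiles of the right panel.

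By RefSeq type, 229 members were protein-coding, with 70 called higher and 15 lower (median 0.15). The 18 pseudogenes and non-coding RNAs had 1 of each, the pseudogene ZNF767P higher (0.36) and ZNF407-AS1 lower, with a median of -0.08. ZNF767P lost its call without DMSO replicate 2 (0.0567) or YW3-56 replicate 3 (0.0629). As a set the pseudogenes and non-coding RNAs were dim, with a median level at percentile 24.4, against 53.2 for the protein-coding members. Of all genes in the dimmest quartile, where the first value lies, 1.72% were called higher and 2.15% lower. In the third quartile, where the second lies, these shares were 16.2% and 17.6%. The 2 gene types thus differed in level, and the difference in calls between them was not tested. Several probe sets were named for 10 members, and in 3 of these, ZNF138, ZNF425 and ZNF503, the probe sets differed in sign.

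Members were then described by known role. The list for growth and breast cancer held 12, of which 3 were called higher (25%) and 2 lower (16.7%), with a median of -0.02. Of all genes 9.84% were called higher and 11.5% lower, and of those in the third quartile of level 16.2% and 17.6%. The list's median level lies in that quartile. Leaving out single arrays moved the list's counts to 1 to 3 higher and 0 to 2 lower. They were 1 and 0 without YW3-56 replicate 3, and higher calls were 1 without DMSO replicate 2 or YW3-56 replicate 2. ZNF217, an oncogene amplified in breast tumours, had 10.16, 10.10 and 10.24 in YW3-56 cells, against 9.93, 9.59 and 9.84 in DMSO cells (0.38 ± 0.10, limma adjusted p = 0.0275). Its call was lost without DMSO replicate 2 (0.0873) or YW3-56 replicate 1 (0.0751), 2 (0.0608) or 3 (0.114). ZNF652, a repressor that works with CBFA2T3, was higher by 0.41 ± 0.08 (adjusted p = 0.00864), with 9.33, 9.38 and 9.23, against 8.98, 8.93 and 8.80. ZNF395 and ZNF367 were lower, by -0.41 and -0.37, and the luminal oncogene ZNF703 differed by -0.04 (adjusted p = 0.837). ZNF367 lost its call without YW3-56 replicate 1 (0.0506) or 3 (0.0531), and the third higher call, ZNF503 (0.36), without DMSO replicate 2 (0.0645) or 3 (0.051) or YW3-56 replicate 2 (0.076) or 3 (0.0783).

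On the chromatin and transcription list 27 genes were measured, with 4 called higher (14.8%) and 1 lower (3.7%), with a median of 0.15. The share called higher is near the 16.2% of all genes in the third quartile of level, where the list's median level lies. Higher calls were 2 without DMSO replicate 2 or any single YW3-56 replicate, and with the replicate number as a block the counts were 5 and 2. ZNF687, a member of a corepressor complex with ZNF592 and ZNF532, had 9.79, 9.74 and 9.81 in YW3-56 cells, against 9.36, 9.27 and 9.08 in DMSO cells (0.54 ± 0.09, limma adjusted p = 0.0038). Its partners ZNF592 and ZNF532 differed by 0.20 and 0.09 without passing the test. ZNF410, known as an activator of CHD4, had 9.78, 9.74 and 9.87, against 9.34, 9.29 and 9.32 (0.48 ± 0.07, limma adjusted p = 0.00253). CHD4 itself, the helicase of the NuRD complex, was lower, at 10.50, 10.45 and 10.47, against 10.98, 11.03 and 11.02 (-0.54 ± 0.07, adjusted p = 0.00112). ZNF384 was higher by 0.27 (adjusted p = 0.0217), a call lost without DMSO replicate 2 (0.0837) or YW3-56 replicate 1 (0.0621), 2 (0.0883) or 3 (0.0722). ZNF518B, which binds the H3K9 methyltransferase G9a, was the 1 lower call, at 9.02, 8.80 and 8.90, against 9.53, 9.46 and 9.35.

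The list of RNA, ribosome, mitosis and ubiquitin factors held 17 members, 2 called higher (11.8%) and 4 lower (23.5%), with a median of -0.03, beside 16.2% and 17.6% of all genes in the third quartile of level, where the list's median lies. Lower calls were 2 without DMSO replicate 2 and 1 without YW3-56 replicate 2 or 3. Lower were ZNF593 (-0.46), a ribosome assembly factor, ZNF655 (-0.41), a cell cycle protein, ZNF346 (-0.37), a double-stranded RNA binder, and ZNF207 (-0.24), the kinetochore protein BuGZ. ZNF655 had 8.85, 8.82 and 8.90 in YW3-56 cells, against 9.26, 9.18 and 9.35 in DMSO cells, and kept its call without any single array. ZNF346 lost its call without DMSO replicate 2 (limma adjusted p = 0.0963) or YW3-56 replicate 1 (0.0849), 2 (0.0673) or 3 (0.0722). ZNF207 lost its call when any single array was left out (0.0522 to 0.158).

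ZNF451, a SUMO ligase, was higher at 9.99, 10.06 and 10.16, against 9.58, 9.44 and 9.49 (0.57 ± 0.08, limma adjusted p = 0.00188), and ZNF622, which acts on ribosome subunits, by 0.27 (adjusted p = 0.0423). The call of ZNF622 held without YW3-56 replicate 2 but not without any other single array (0.0565 to 0.172). Counted together, the 56 members on a role list had 9 called higher (16.1%) and 7 lower (12.5%), with a median of 0.06. Their median level lies at percentile 68.5, in the third quartile, where 16.2% of all genes were called higher and 17.6% lower. The 191 on no list had 62 (32.5%) and 9 (4.71%), with a median of 0.15 and a median level at percentile 49.95. Over all genes these shares were 9.84% and 11.5%. Members on a list and those on none thus differed in level, and the difference in calls between them was not tested.

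Genes for the corepressor machinery that KRAB proteins recruit are no members, and they are given for their place in the same pathway. Of 29 partners measured, 3 were called higher (10.3%) and 10 lower (34.5%), with a median of -0.21, beside 15.3% and 19.9% of all genes in the brightest quartile, where the list's median level lies. Higher were DNMT3B (0.40), CHD3 (0.30) and GATAD2B (0.28), and all 3 lost their call without DMSO replicate 2 or YW3-56 replicate 2. Without YW3-56 replicate 1 or 3, 1 higher call was left, and without DMSO replicate 1 there were 2. Lower calls were 6 without YW3-56 replicate 2 or 3 and 7 to 9 without any other single array. CBX5, the HP1α gene, was lower by -0.56 ± 0.08 (limma adjusted p = 0.00226), and MTA1 and PPHLN1 by -0.46 each. TRIM28 had 12.10, 12.18 and 12.20 in YW3-56 cells, against 12.36, 12.40 and 12.39 in DMSO cells; the arrays did not overlap, but the difference of -0.22 ± 0.07 missed the threshold (adjusted p = 0.0547). With the replicate number as a block it passed (adjusted p = 0.0456), and it missed whichever array was left out (0.0556 to 0.163). SETDB1 differed by -0.08 (adjusted p = 0.575).

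**Figure D5:**
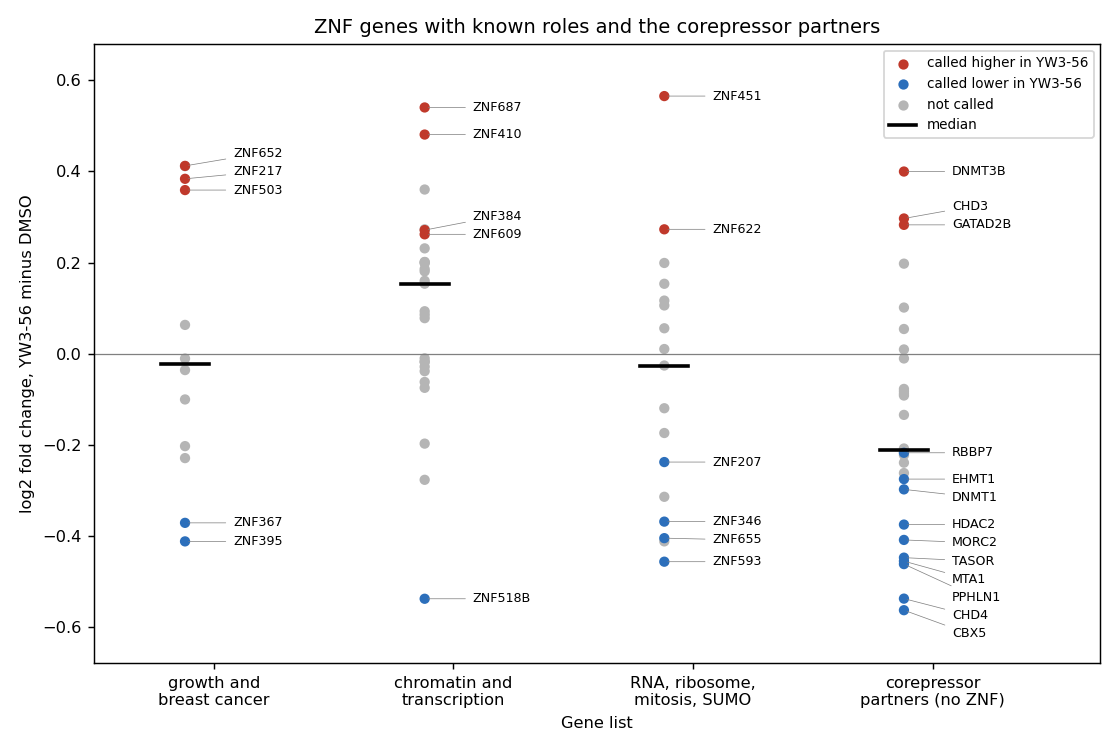
Log2 difference, YW3-56 minus DMSO, of each gene (points, coloured by call) on the 3 role lists of members and on the list of corepressor partners, with a bar at each list's median. Members of the role lists lie on both sides of 0, from ZNF518B at -0.54 to ZNF451 at 0.57, and 10 of the 29 partners are called lower.

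The members can be set beside the ZNF genes of chromosome 19. There, 116 of 237 genes (48.9%) were called higher and 7 (2.95%) lower, with a median of 0.30, so the shift in the members had the same direction with a smaller median and a larger share of lower calls. The 11 ZNF genes of the X chromosome had 4 called higher and 0 lower in limma (5 and 0 at an unadjusted p under 0.05, median 0.14). Genes that are no ZNF had 9.04% called higher and 11.7% lower (median -0.05). The differences between these sets were described and not tested.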

How the data were processed

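Affymetrix arrays of 3 YW3-56 and 3 DMSO cultures were used. The deposited values are log2 intensities of 33297 probe sets, which the authors made with RMA and affy (versions not given), per the submitters' processing notes. RMA corrects background, equalises array distributions and summarises probes, which hides a shift common to all transcripts. Levels of different probe sets are not comparable. Arrays carry no read depth, so their number limits precision.

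Of the probe sets, 19460 had a single symbol and 1754 several, 41 of these with a ZNF among them, and were left out. For 769 genes with several probe sets the brightest was kept, which gave 18417 genes. All 247 members matched RefSeq (GRCh38.p14) by Entrez identifier and 0 symbols differed. The array annotation's build is not given, so RefSeq served for names, chromosomes, gene order and promoters. limma 3.58.1 in R 4.3.3 (lmFit, eBayes, group only, two-sided) left 4 residual and 4.17 prior degrees of freedom, and was tested on simulated data. Same-numbered arrays of the groups deviated together over genes (r = 0.54, 0.37 and 0.10 for replicates 1, 2 and 3), the third only just. YW3-56 replicate 2 correlated better with DMSO replicate 3 (0.42), so pairing of the cultures by number stayed unsettled. The main fit takes no account of pairing. Alternatives were a replicate block, other scalings, level filters, probe set averages, another prior, array weights and each array left out.

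Named genes were the 10 largest called rises and falls, up to 4 per role list, the largest called change per chromosome with at least 10 members, and TRIM28, SETDB1 and up to 4 partners; other genes were named to describe chromosomes and neighbours after their values were seen. The members and lists were chosen with earlier results of these data known. A grouping by protein domains was not made, since protein sequences were not used here.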

Additional observations from a re-analysis of the deposited data

How the results depend on the processing

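Over the 14 alternative fits the members kept more higher than lower calls and a positive median. With the replicate number as a block (paired fit) 78 members were called higher and 19 lower: 2 of the 87 calls were lost, ZNF672 (adjusted p = 0.0555) and ZNF718 (0.0591), and 12 were gained. With limma's array weights, which gave DMSO replicate 2 a weight of 2.94 and DMSO replicate 1 one of 0.33, the counts were 96 higher and 33 lower, beside 14.4% and 18.6% of all genes; the cause was not tested. The members' median was 0.15 after a second quantile normalization and 0.14 with each array centred. It was 0.16 over the 206 members above the 25th percentile of level and 0.18 over the 139 above the median level, which leave out dim members. Leaving out 1 array at a time gave 45 to 83 higher calls, 9 to 19 lower calls and medians of 0.0938 to 0.1282. Of the 38 named genes, 0 changed direction under the alternatives that tested them, and 0 lost a call other than by leaving out an array; the level filters tested 35 and 30 of them. TRIM28 gained a call in the paired fit (adjusted p = 0.0456), with the level filters (0.0326 and 0.0142), with the trended and robust prior (0.00389) and with array weights (0.0183). The second normalization and the centring moved the median of all genes by 0.03 each, and leaving out 1 array moved it by up to 0.04.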
